A study of Mus musculus with 5 samples.

Results

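Endogenous retroviruses and LTR Retrotransposons are 2 of the 12 lines in the deposited count tables, and by their names they hold retroelements flanked by long terminal repeats (LTRs). They were chosen by name and not by their values, and they were read in all 5 libraries of the study. The libraries came from mouse embryonic fibroblasts, primary cells taken from embryos and here proliferating at passage 4. In 4 of them DNA was immunoprecipitated (ChIP) with an antibody to γH2AX, the phosphorylated form of the histone variant H2AX that marks damaged DNA and stalled replication forks. The fifth was input DNA, sequenced without antibody, whose genotype the labels do not give.

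Each ChIP library stood for 1 genotype of Rb, the gene of the retinoblastoma protein. Rb+/+ cells carried 2 normal alleles. RbΔL/+ cells carried 1 ΔL allele and 1 normal allele, and RbΔL/ΔL cells carried ΔL on both. ΔL alters the pocket through which the protein binds partners with an LXCXE motif. Rb-/- cells lacked the gene. The sources used here do not say how many embryos each library came from. The series title ties loss of an RB complex with E2F1 and Condensin II to replication stress, and the count tables address where γH2AX lay in repeated DNA. Since a genotype had 1 library, differences between them have no replicates behind them. The 95% intervals below cover counting error alone.

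LTR elements copy themselves through RNA, which a reverse transcriptase turns back into DNA, and their flanking repeats carry the promoter and the end signal of that RNA. Endogenous retroviruses are the LTR elements that descend from germline infections, and in the mouse they include families that can still move, such as IAP and ETn elements. Fibroblasts keep most of them silent through DNA methylation and repressive histone marks. RB has been tied to the silencing of such repeats in mouse fibroblasts. The element families that the authors placed in which line the sources used here do not say, so the lines are described under the names the tables give them. Reads carry no position within these lines, and no element sequence is printed.

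Endogenous retroviruses were a large line and LTR retrotransposons a very small one. For endogenous retroviruses the input held 363778 counts, the Rb+/+ library 388771, the RbΔL/+ library 328862, the RbΔL/ΔL library 342663 and the Rb-/- library 381945. For LTR retrotransposons the input held 821 counts, the Rb+/+ library 824, the RbΔL/+ library 764, the RbΔL/ΔL library 742 and the Rb-/- library 325. The LTR line was the smallest of the 12 in every library, and the endogenous retrovirus line ranked 4 by size in all libraries except Rb-/-, where it ranked 5. Library totals ran from 13731924 counts in RbΔL/+ to 17896985 in Rb+/+. At these depths the counting error of 1 standard deviation was 0.160% to 0.174% of the value for endogenous retroviruses. For LTR retrotransposons it was 3.48% to 3.67% in 4 libraries and 5.55% in Rb-/-.

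**Figure D1:**
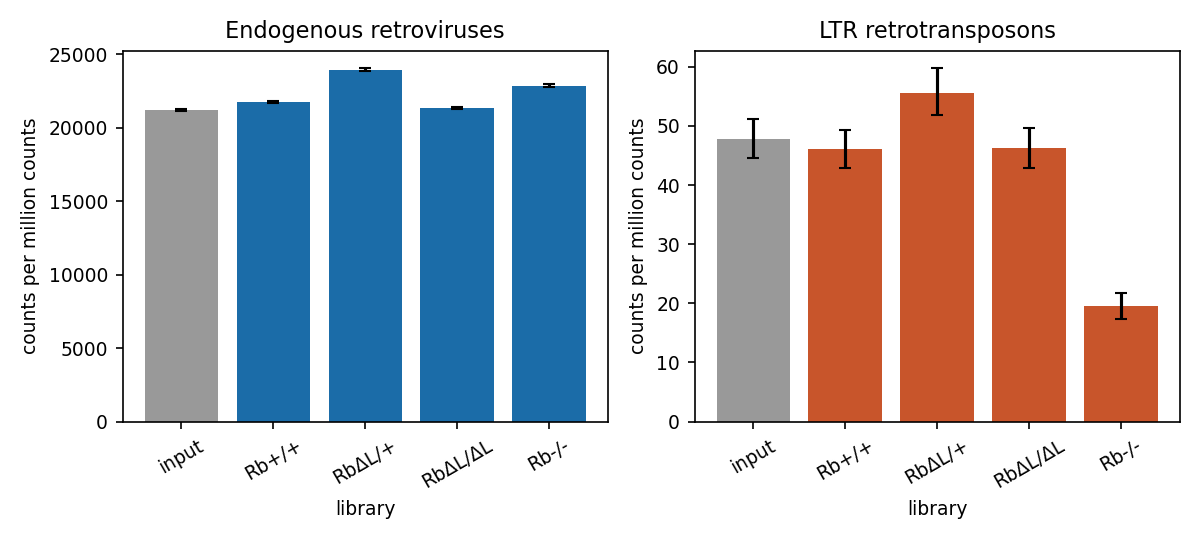
Counts per 1000000 counts of the library (CPM) for endogenous retroviruses (left) and LTR retrotransposons (right) in the input (grey) and the 4 ChIP libraries, 1 library each; error bars are exact 95% binomial intervals. The tallest bar is RbΔL/+ in both panels, and in the right panel Rb-/- stands at 19.5 CPM against 46.0 to 55.6 in the other libraries.

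As a share of all counts, endogenous retroviruses differed little between libraries. They made up 2.12% (2.11 to 2.12) of the input, 2.17% (2.17 to 2.18) of Rb+/+, 2.39% (2.39 to 2.40) of RbΔL/+, 2.13% (2.13 to 2.14) of RbΔL/ΔL and 2.29% (2.28 to 2.29) of Rb-/-. Every ChIP library was above the input, although RbΔL/ΔL fell just below it with the unique genome as the denominator (0.998 times) or without satellites in the total (0.9996 times). RbΔL/+ was highest, and with each library scaled so that its median line ratio to the input was 1 it was instead the lowest of the 4, at 1.01 times. In RbΔL/+ that median was the mean of the ratios of endogenous retroviruses (1.13) and of another line, SINEs (1.11). The line thus helped to set its own scale, which drew its value toward 1. The median itself was 1.12 in RbΔL/+, against 0.972 in Rb+/+, 0.986 in RbΔL/ΔL and 1.01 in Rb-/-. The first place of RbΔL/+ therefore depended on the scale. Its place without endogenous retroviruses in the median was not computed. With the median taken over lines of at least 10000 counts, RbΔL/+ was again the highest, at 1.09 times. LTR retrotransposons, given as counts per 1000000 (CPM), made up 47.8 CPM (44.6 to 51.2) of the input, 46.0 CPM (43.0 to 49.3) of Rb+/+, 55.6 CPM (51.8 to 59.7) of RbΔL/+, 46.2 CPM (42.9 to 49.6) of RbΔL/ΔL and 19.5 CPM (17.4 to 21.7) of Rb-/-. The intervals of the input, Rb+/+ and RbΔL/ΔL overlapped one another. RbΔL/+ lay above those 3 and Rb-/- lay far below all others.

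Against the input, the lines moved together in RbΔL/+ and apart in Rb-/-. In Rb+/+ the endogenous retrovirus share was 1.03 times the input (1.02 to 1.03) and the LTR share 0.963 times (0.875 to 1.06). Neither reached 1.1 times in either direction, which 33.3% of the 12 lines did in that library. In RbΔL/+ endogenous retroviruses stood at 1.13 times the input (1.13 to 1.14) and LTR retrotransposons at 1.16 times (1.06 to 1.28). Both were thus past 1.1 times, as were 66.7% of all lines in RbΔL/+, so the pair did not stand out there. The median line of that library was itself at 1.12 times the input, a shift of 0.16 on the log2 scale. Relative to that median the endogenous retrovirus value was 1.01 and the LTR value 1.04. The endogenous retrovirus ratio was itself averaged into that median, which drew its value toward 1.

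In RbΔL/ΔL both lines were near the input, at 1.01 (1.003 to 1.012) for endogenous retroviruses and 0.967 (0.875 to 1.07) for LTR retrotransposons. None of the pair passed 1.1 times in RbΔL/ΔL, where 25% of lines did. In Rb-/- endogenous retroviruses were at 1.08 times the input (1.075 to 1.085), while LTR retrotransposons were at 0.407 times (0.358 to 0.463). Of the pair, 1 was past 1.1 times in Rb-/-, against 50% of all lines. No other line of any ChIP library lay as far below the input as LTR retrotransposons in Rb-/-. The next lowest ratio was that of satellites in Rb+/+, at 0.686.

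In counts, the departures were of unequal size. At the share seen in the input, the Rb-/- library would have held 798 LTR counts, and it held 473 fewer. The same library held 28266 more endogenous retrovirus counts than the 353679 that the input share gives. In RbΔL/+ the excess over the input share was 38103 endogenous retrovirus counts and 108 LTR counts. The LTR shortfall in Rb-/- therefore concerned 28.3 CPM, and the endogenous retrovirus excess in RbΔL/+ 2775 CPM.

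The total against which a line is set mattered for endogenous retroviruses. Repeats other than satellites took up a larger part of the RbΔL/+ and Rb-/- libraries (7.84% and 7.85% of counts) than of the input (7.31%), Rb+/+ (7.46%) or RbΔL/ΔL (7.26%). Within these 10 repeat lines, endogenous retroviruses made up 29.0% of the input, 29.1% of Rb+/+, 30.5% of RbΔL/+, 29.4% of RbΔL/ΔL and 29.1% of Rb-/-. On this scale their ratio to input fell from 1.13 to 1.05 (1.05 to 1.06) in RbΔL/+ and from 1.08 to 1.01 (1.002 to 1.009) in Rb-/-. The endogenous retrovirus value of Rb-/- thus came level with that of Rb+/+, which was also 1.01 (1.001 to 1.009). RbΔL/+ remained the highest of the 4.

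LTR retrotransposons kept their place in Rb-/- on the repeat scale, at 0.379 times the input (0.333 to 0.431). Their share of the 10 repeat lines was 0.0248% there, against 0.0617% to 0.0710% in the other 4 libraries. In RbΔL/+ the LTR ratio on the repeat scale was 1.09 with an interval of 0.984 to 1.198, which includes 1. The LTR value of that library was therefore above the input by more than counting error on the scale of all counts and not on that of repeats.

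**Figure D2:**
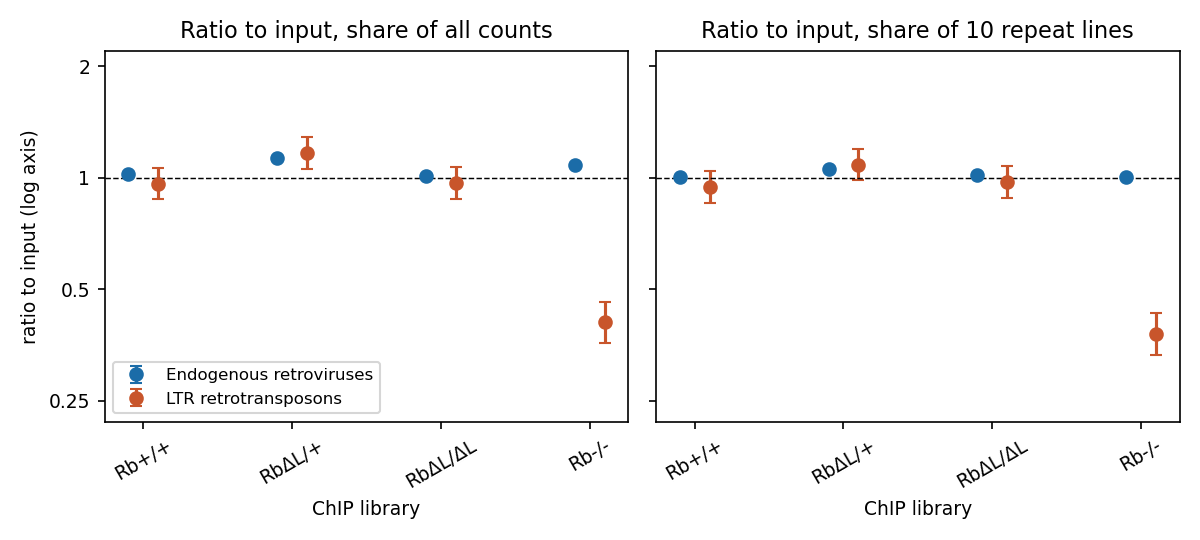
Ratio of each ChIP library to the input (log axis) for endogenous retroviruses (blue) and LTR retrotransposons (orange), as a share of all counts (left) and of the 10 repeat lines without satellites and unique genome (right); points are 1 library each and bars are 95% counting intervals, smaller than the points for endogenous retroviruses. LTR retrotransposons in Rb-/- lie at 0.407 and 0.379, while the other 7 points of each panel lie between 0.94 and 1.17.

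Set against the Rb+/+ library, the mutants differed in which line moved. RbΔL/+ was higher for both, except that endogenous retroviruses came to 0.988 with the median line ratio to Rb+/+ set to 1. That median averaged the ratio of endogenous retroviruses themselves (1.102) and that of SINEs (1.129). The value of 0.988 therefore places endogenous retroviruses just below the middle of the lines, at 7 of 12 from the highest. On the scale of all counts RbΔL/+ stood at 1.102 times Rb+/+ (1.097 to 1.108) for endogenous retroviruses and 1.21 times (1.095 to 1.33) for LTR retrotransposons, and 66.7% of all lines differed by at least 1.1 times in that comparison. RbΔL/ΔL was at 0.982 (0.978 to 0.987; 1.01 on the repeat scale) and 1.00 (0.909 to 1.11), neither past 1.1 times, where 41.7% of lines were. Rb-/- was at 1.05 (1.05 to 1.06) for endogenous retroviruses and 0.423 (0.372 to 0.480) for LTR retrotransposons, 1 of the pair past 1.1 times against 41.7% of all lines. LTR retrotransposons had the largest difference of the 12 lines between Rb-/- and Rb+/+. They ranked 3 of 12 in distance between RbΔL/+ and Rb+/+, and 11 of 12 between RbΔL/ΔL and Rb+/+. In the RbΔL/+ and RbΔL/ΔL comparisons the LTR interval spans the ratios of several other lines, so counting error leaves these places unresolved. The ratios share the Rb+/+ library, as those above share the input.

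Comparing the mutants with each other, 1 ΔL allele and 2 ΔL alleles gave unlike values. RbΔL/ΔL stood at 0.891 times RbΔL/+ (0.887 to 0.895) for endogenous retroviruses and at 0.830 times (0.751 to 0.919) for LTR retrotransposons. On the repeat scale these became 0.962 (0.958 to 0.966) and 0.897 (0.811 to 0.992). The library with the single mutant allele was thus the higher for both lines on these scales. With the median line ratio to the input at 1 it was the lower for endogenous retroviruses (1.01 against 1.02 times the input), and with the median line ratio to Rb+/+ at 1 it was the higher (0.988 against 0.982 times Rb+/+). With these medians over lines of at least 10000 counts in the reference it was the higher relative to the input (1.09 against 1.02). Relative to Rb+/+ it was the lower (1.016 against 1.018), but there Pseudogene, with 12486 counts in Rb+/+, joined the lines used. Endogenous retroviruses were part of the median in RbΔL/+ under both scalings over all lines, and in both libraries under the last one. Under those scalings the values were close, so these orders carry little separate information. For LTR retrotransposons RbΔL/+ was the higher under all 4 of these scalings, for example at 1.04 against 0.980 with the median line ratio to the input at 1. No intervals were computed for these orders. The LTR counting error was 3.62% in RbΔL/+ and 3.67% in RbΔL/ΔL, so a difference as small as that example is not resolved. On the scale of all counts, the library with 2 mutant alleles was near Rb+/+. Rb-/- lay at 0.3497 times RbΔL/+ (0.307 to 0.398) and 0.421 times RbΔL/ΔL (0.370 to 0.480) for LTR retrotransposons. For endogenous retroviruses Rb-/- was at 0.955 times RbΔL/+ (0.9504 to 0.959) and 1.07 times RbΔL/ΔL (1.07 to 1.08), and on the repeat scale the latter was 0.991 (0.987 to 0.995).

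Ordered by their share of all counts, the ChIP libraries ran RbΔL/+, Rb-/-, Rb+/+, RbΔL/ΔL for endogenous retroviruses, and each neighbour differed from the next by more than counting error. On the repeat scale RbΔL/ΔL took second place, and Rb-/- and Rb+/+ did not differ beyond counting error (1.0002, 0.996 to 1.004). For LTR retrotransposons the order was RbΔL/+, RbΔL/ΔL, Rb+/+, Rb-/-, and the middle pair did not differ beyond it. Rb-/- was the lowest for LTR retrotransposons on every scale tried.

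The ratio of the LTR count to the endogenous retrovirus count needs no library total. Per 1000 endogenous retrovirus counts the Rb-/- library held 0.851 LTR counts (0.761 to 0.949), and the input held 2.26 (2.10 to 2.42). Rb+/+ held 2.12 (1.98 to 2.27), RbΔL/+ held 2.32 (2.16 to 2.49) and RbΔL/ΔL held 2.17 (2.01 to 2.33). Without Rb-/- the highest of these was 1.0961 times the lowest, and with it 2.73 times. Relative to the input the ratio was 0.377 (0.332 to 0.429) for Rb-/-, 0.939 (0.853 to 1.03) for Rb+/+, 1.03 (0.933 to 1.14) for RbΔL/+ and 0.959 (0.869 to 1.06) for RbΔL/ΔL. The last 3 intervals include 1. In RbΔL/+ the lines were therefore raised by factors that could not be told apart at this depth, while in Rb-/- the ratio was 0.401 times that of Rb+/+ (0.353 to 0.456).

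**Figure D3:**
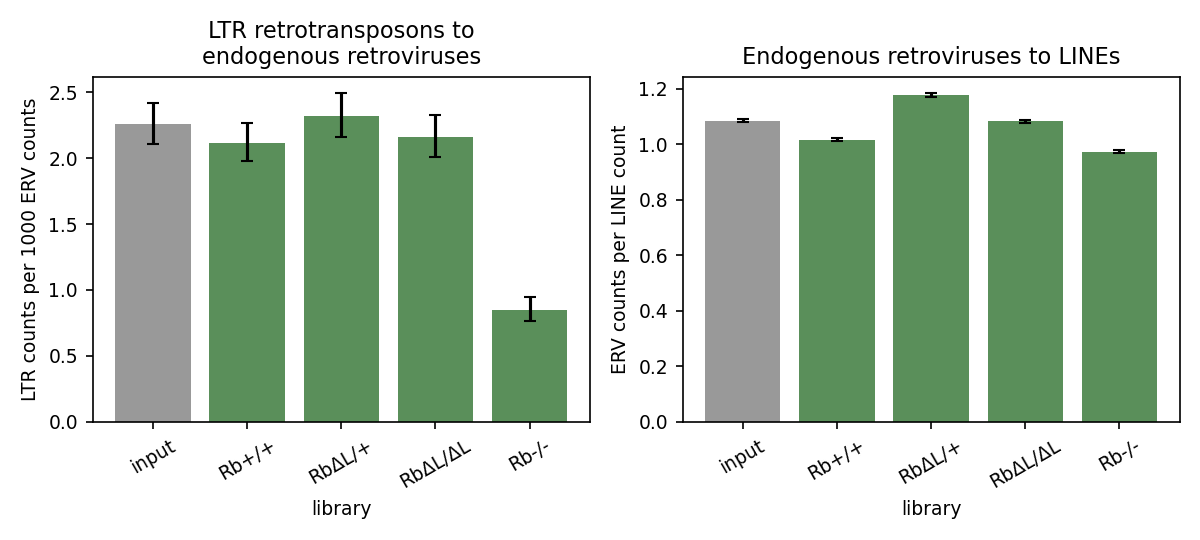
Ratios of counts within each library, for LTR retrotransposons per 1000 endogenous retrovirus (ERV) counts (left) and for endogenous retroviruses per LINE count (right); the input is grey, the ChIP libraries are green, and error bars are 95% binomial intervals. The left panel shows Rb-/- at 0.851 against 2.12 to 2.32 elsewhere, and the right panel shows RbΔL/+ highest at 1.18 and Rb-/- lowest at 0.974.

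The LTR value of Rb-/- was also the lowest when set against each of the other transposable element lines. The DNA transposon line and the line of other transposable elements were the transposable element lines nearest in size, and they were picked for this comparison after their values were seen. Per 1000 DNA transposon counts there were 111 LTR counts (98.9 to 125) in Rb-/-, against 257 for the input, 262 for Rb+/+, 294 for RbΔL/+ and 257 for RbΔL/ΔL. Per 1000 counts of other transposable elements there were 98.0 (87.2 to 109.8) in Rb-/-, against 285, 314, 284 and 274 in the same order. Relative to LINEs, the long interspersed elements that move without LTRs, the LTR count in Rb-/- was 0.338 times the input ratio (0.298 to 0.385). On this ratio Rb+/+ was also below the input, at 0.881 (0.800 to 0.970). RbΔL/+ was above it at 1.12 (1.01 to 1.23), and RbΔL/ΔL was at 0.958 (0.867 to 1.06). Relative to SINEs, the short elements that depend on LINE proteins, the LTR count in Rb-/- was 0.403 times the input ratio (0.354 to 0.459).

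LINEs were the transposable element line nearest in size to endogenous retroviruses, and their order changed between libraries. The input held 1.08 endogenous retrovirus counts per LINE count (1.080 to 1.090), Rb+/+ held 1.02 (1.01 to 1.02), RbΔL/+ held 1.18 (1.17 to 1.18), RbΔL/ΔL held 1.08 (1.08 to 1.09) and Rb-/- held 0.974 (0.969 to 0.978). Endogenous retroviruses outnumbered LINEs in all libraries but Rb-/-. Relative to the input this ratio was 0.938 (0.932 to 0.944) for Rb+/+, 1.09 (1.08 to 1.09) for RbΔL/+, 0.999 (0.992 to 1.01) for RbΔL/ΔL and 0.898 (0.892 to 0.904) for Rb-/-. Endogenous retroviruses thus gained on LINEs in RbΔL/+ and lost ground to them in Rb+/+ and Rb-/-. Against SINEs they were above the input in all 4 ChIP libraries, from 1.02 in RbΔL/+ to 1.08 in RbΔL/ΔL.

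Of all counts in the 6 transposable element lines, the part of endogenous retroviruses was 47.0% for the input, 45.9% for Rb+/+, 48.8% for RbΔL/+, 47.3% for RbΔL/ΔL and 45.1% for Rb-/-. These shares put Rb-/- lowest, although its share of all counts was the second highest. The 6 lines together made up 5.07% of the Rb-/- library, the most of any, against 4.51% of the input and 4.91% of RbΔL/+.

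Across the 4 ChIP libraries, LTR retrotransposons had the second widest spread of the 12 lines, with the highest share 2.86 times the lowest. Pseudogene, at 4.11 times, was the sole line with a wider spread. Endogenous retroviruses ranked 9 of 12, at 1.12 times. Without Rb-/- the LTR spread was 1.21 times, which ranked 5 of 12, so its width rested on that library. The endogenous retrovirus spread stayed at 1.12 times. As a share of all counts, only Rb-/- was below the input beyond counting error for LTR retrotransposons. That library was above the input for other lines. Among them were Pseudogene at 3.64 times the input, the line named other at 1.397 times and LINEs at 1.20 times. Pseudogene was above the input in every ChIP library, and for this line Rb-/- stood at 0.595 times Rb+/+. The part of that library's overall makeup in the LTR value was not tested.

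**Figure D4:**
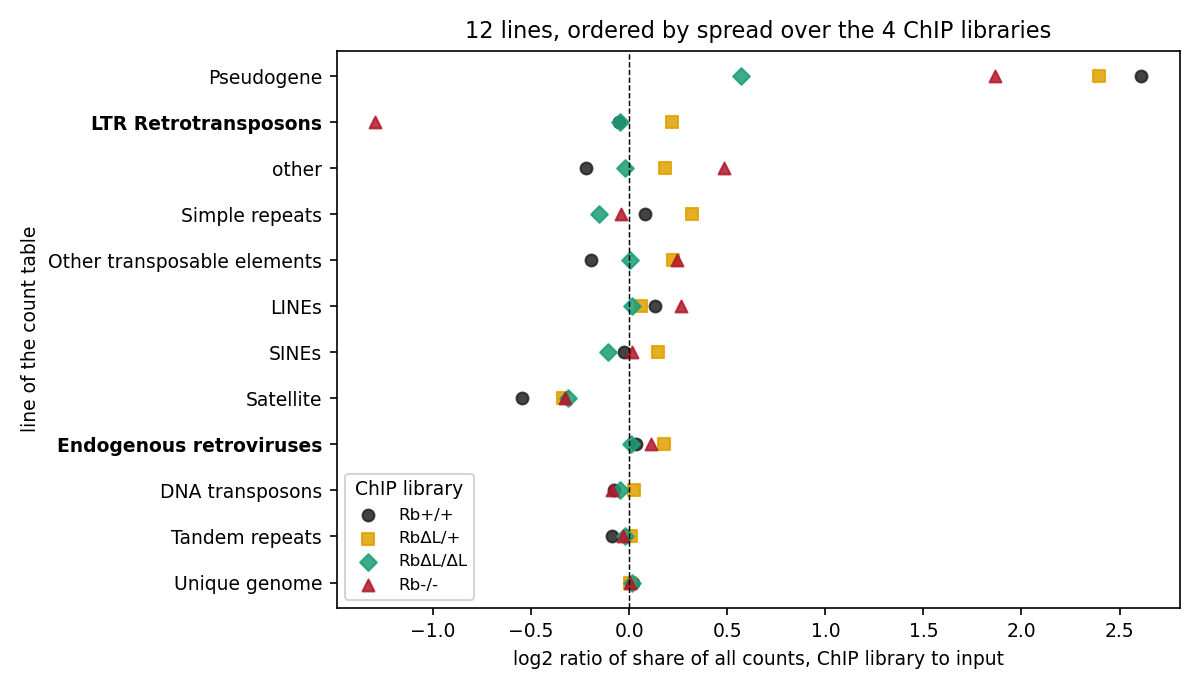
Log2 ratio to the input of the share of all counts for the 12 lines, ordered by their spread over the 4 ChIP libraries; each symbol is 1 library, and the endogenous retrovirus and LTR retrotransposon lines are in bold. LTR retrotransposons in Rb-/- lie at -1.30, the lowest point of all, while endogenous retroviruses lie between 0.01 and 0.18 in every ChIP library.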

How the data were processed

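The 5 count tables deposited by the authors give whole-number counts in 12 lines, which were used as they stand. Per the submitters' processing notes, the tools were Bowtie 1.0 and MACS 1.4.2 and the build mm9, with no role stated. The sources used here do not give the handling of reads that fit several copies, the handling of duplicates or the repeat library. Each count was divided by the sum of all 12 lines, or of the 10 lines left without Satellite and Unique genome. Shares have exact (Clopper-Pearson) 95% intervals, and ratios have 95% counting intervals on the log scale. Without molecular identifiers reads need not be independent molecules, so intervals cover counting error alone. With 1 library per group no test was run. A fold of 1.1 served to count how many lines differed. The ratio intervals were checked on 1000 draws of simulated counts at the observed shares of Rb-/- and the input. They covered the set ratio in 95.7% to 95.8% of draws. The draws follow the counting model that the intervals assume, so they say nothing of duplicates, multiple placement or variation between libraries. Alternatives were 5 other scalings of the shares and 1 other denominator for the LTR ratio. Medians were taken over all 12 lines, the pair included, or over lines of at least 10000 counts in the reference library. The lines were taken by name, other lines were named to place them, and lines and alternatives were chosen with earlier results of these data known. Peak lists and satellite family counts were not used here. Python 3.11.15, numpy 2.4.6, scipy 1.17.1 and matplotlib 3.10.9 were used.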

Additional observations from a re-analysis of the deposited data

Results flagged for a closer look

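LTR retrotransposons lay below the input in Rb-/- (0.407 times) and above it in RbΔL/+ (1.16 times), both beyond the counting error. The difference between these genotypes was not tested, since each rests on 1 library, and in RbΔL/+ the interval includes 1 on the scale of repeat lines.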

How the results depend on the processing

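The LTR to endogenous retrovirus ratio kept its direction with endogenous retroviruses, LINEs and SINEs together as denominator. LTR values kept their direction under all 5 scalings, and in Rb-/- ranged from 0.379 to 0.407 of the input and from 0.402 to 0.427 of Rb+/+. With the median line ratio set to 1, which shifted RbΔL/+ by 0.16 (log2), its LTR value fell to 1.04 of the input and 1.08 of Rb+/+. The rest concerns endogenous retroviruses, for which 6 values stayed within their counting interval and 29 did not, 5 of them changing direction.

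Relative to the input, in the order Rb+/+, RbΔL/+, RbΔL/ΔL, Rb-/-, endogenous retroviruses were at 1.01, 1.05, 1.01 and 1.01 over the 10 repeat lines, at 1.01, 1.12, 0.9996 and 1.07 over all lines without Satellite, and at 1.06, 1.01, 1.02 and 1.07 with the median line at 1. Over Unique genome they were at 1.01 in Rb+/+ and 0.998 in RbΔL/ΔL. With the median taken over lines of at least 10000 counts they were at 1.01, 1.09 and 1.02 in Rb+/+, RbΔL/+ and RbΔL/ΔL. RbΔL/ΔL thus fell below the input over Unique genome and without Satellite.

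Relative to Rb+/+, in the order RbΔL/+, RbΔL/ΔL, Rb-/-, they were at 1.05, 1.01 and 1.0002 over the repeat lines. RbΔL/+ and Rb-/- were at 1.11 and 1.06 over Unique genome, at 0.988 and 1.02 with the median line at 1, and at 1.02 and 1.02 with the median over lines of at least 10000 counts. Without Satellite, RbΔL/ΔL and Rb-/- were at 0.987 and 1.06. RbΔL/ΔL turned above Rb+/+ over the repeat lines and, at 1.02, with the filtered median, and RbΔL/+ turned below it with the median of all lines. In both turns with a median, the endogenous retrovirus ratio was averaged with that of SINEs to give the median. This drew those values toward 1 without setting their direction. Relative to Rb+/+, SINEs were at 1.129 in RbΔL/+ and 0.948 in RbΔL/ΔL, against 1.102 and 0.982 for endogenous retroviruses. The scalings differ only in the denominator; no further cause was tested. No paired analysis was possible because each group has 1 library. The depth leaves each LTR count a counting error of 3.48% to 5.55%.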
